A study of Mus musculus with 12 samples.

Results

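The 29 genes described here carry cholesterol from its first building blocks to the ester in which cells store it. They were the rows of the deposited count table whose symbol was on a list of cholesterol synthesis and uptake genes, and all 29 were found among 47730 features. Of these, 8 encode enzymes from acetyl-CoA to farnesyl and geranylgeranyl diphosphate, 11 the enzymes from squalene to cholesterol, 5 the sterol-sensing machinery, and 5 proteins of uptake, lysosomal exit, transfer and esterification. The rule uses no measured value, although the list was drawn up with earlier results of these data known. All 29 passed the filter on low values (10 or more normalised counts in 3 or more libraries) in each comparison below.

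The series measured polyA RNA from hindlimb muscle (plantaris with gastrocnemius) and testis of male mice aged 5 to 6 months, with 3 libraries in each of 4 groups. Controls were Bckdk+/+ and mutants BckdkM/M, both on C57BL/6J after at least 10 generations of backcrossing, fed freely and killed at Zeitgeber time 6 to 7, the middle of the light phase. The Bckdk product phosphorylates and so inactivates the dehydrogenase complex through which leucine, isoleucine and valine are burnt, and the series title links sufficiency of these amino acids to testosterone production and to coordinated movement. The sources used here do not say how the mutant allele was made. The letters A to G stand for the 7 mouse numbers in the column headers. A, B and C are wild type in both tissues, D and F labelled mutant in both, G mutant muscle only and E labelled mutant testis only. Where 3 values are given they follow this order: A, B and C for wild type, D, F and G for mutant muscle, and D, E and F for labelled-mutant testis.

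Cholesterol is built from acetyl-CoA through mevalonate, isoprenoid diphosphates, squalene and lanosterol. When the endoplasmic reticulum holds little sterol, SCAP escorts the SREBP transcription factors to the Golgi, where they are cut and released to switch on the synthesis genes and the LDL receptor; when sterol is plentiful, the INSIG proteins hold SCAP back. Leydig cells of the testis make testosterone from cholesterol, which they synthesise, take from lipoproteins through SR-BI or release from stored esters, and developing germ cells run a synthesis pathway of their own whose intermediates include meiosis-activating sterols made by lanosterol demethylase.

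Library depth was 12852427 to 15795722 reads counted on genes. Bckdk checked the labels: it stood at 2214, 2421 and 2627 in control muscle and at 14.8, 14.3 and 12.4 in the mutant. In testis it went against the label, at 67.95, 73.3 and 70.99 for controls and 138, 119 and 114 for the libraries labelled mutant, a name kept for them throughout. Markers of each labelled tissue were present: 7 myofibre genes summed to 1340691 to 2648196 in muscle and to 157 to 14569 in testis, and 7 genes of elongating spermatids to 166112 to 194633 in testis and 573 to 2463 in muscle. Transcripts typical of each tissue were thus also counted at a low level in the other. The 100 most abundant testis genes that muscle expressed at under 3% of testis had medians of 0.446% to 1.27% of their testis level in the muscle libraries, lowest in F and G. Muscle genes chosen likewise had 0.291% to 0.856% of their muscle level in the testis libraries. The sum of 12 pancreatic islet genes also varied, from 13378 to 32126 in muscle (highest in F and G) and from 10571 to 19228 in testis (highest in A and B). Leaving these libraries out, as done below, leaves 1 library in a group: mutant D in muscle and wild-type C in testis.

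Promoters are shown because 3 of these genes, Idi1, Lss and Cyp51, were among those higher in testis, while Hmgcs1 had similar counts in both tissues and was the only matched member with the searched SREBP motif. RefSeq promoter windows (GRCm38.p6, 250 bases before to 50 after the start) were matched for 23 of 29 members, in 31 windows of 32851; Fdps, Fdft1, Sqle, Scarb1, Npc1 and Stard4 were not matched. The 250 bases before the start are printed 5′ to 3′ on the gene's strand, with capitals marking the SREBP letters TCACNCCAC, the NF-Y letters CCAAT and the Sp1 letters GGGCGG on either strand. Hmgcs1 lies at chr13:119690101-119690350 on the plus strand, Idi1 at chr13:8885356-8885605 on the plus strand, Lss at chr10:76531355-76531604 on the plus strand and Cyp51 at chr5:4104698-4104947 on the minus strand.
Hmgcs1: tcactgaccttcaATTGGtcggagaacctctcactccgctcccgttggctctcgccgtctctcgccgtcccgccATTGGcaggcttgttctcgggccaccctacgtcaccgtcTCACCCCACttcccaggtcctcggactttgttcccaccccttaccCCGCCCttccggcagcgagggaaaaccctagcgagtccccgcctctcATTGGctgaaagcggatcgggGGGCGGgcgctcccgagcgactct
Idi1: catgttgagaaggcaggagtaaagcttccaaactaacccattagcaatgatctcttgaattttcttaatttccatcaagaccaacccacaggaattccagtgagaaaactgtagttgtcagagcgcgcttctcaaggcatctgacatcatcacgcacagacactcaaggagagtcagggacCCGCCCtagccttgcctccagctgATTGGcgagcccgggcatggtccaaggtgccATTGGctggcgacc
Lss: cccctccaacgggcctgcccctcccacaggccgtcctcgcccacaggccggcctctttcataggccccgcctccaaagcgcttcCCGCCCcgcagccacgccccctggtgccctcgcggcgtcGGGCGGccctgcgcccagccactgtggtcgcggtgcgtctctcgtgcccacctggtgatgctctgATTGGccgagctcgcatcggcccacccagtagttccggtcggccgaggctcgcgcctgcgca
Cyp51: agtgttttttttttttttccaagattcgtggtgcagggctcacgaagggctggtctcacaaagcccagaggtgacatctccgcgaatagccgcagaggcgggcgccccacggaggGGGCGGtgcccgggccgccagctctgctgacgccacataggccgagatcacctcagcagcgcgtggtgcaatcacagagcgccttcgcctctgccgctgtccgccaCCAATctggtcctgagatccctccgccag
The Hmgcs1 stretch held 1 SREBP match, 3 NF-Y and 2 Sp1 matches, that of Idi1 2 NF-Y and 1 Sp1, that of Lss 1 NF-Y and 2 Sp1, and that of Cyp51 1 NF-Y and 1 Sp1. Over the 31 member windows the SREBP letters were in 1 (3.23%), against 1.24% of all windows. NF-Y letters were in 22 (71.0%, against 37.4% of all) and Sp1 letters in 25 (80.6%, against 35.7% of all). The CRE letters TGACGTCA were in 0 member windows, against 1.79% of all. A match is only a match of letters, and a stretch without the searched letters may still hold a site spelled otherwise.

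Wild-type testis and wild-type muscle had higher counts of different members of the pathway. Testis had higher normalised counts of the enzymes from isopentenyl diphosphate isomerase (Idi1) to lanosterol demethylase (Cyp51), of the SR-BI receptor (Scarb1) and of the esterifying enzyme Soat1, up to 13.6-fold for squalene epoxidase (Sqle). Muscle had higher counts of the mevalonate kinases and mevalonate diphosphate decarboxylase, of 2 late sterol enzymes, of Srebf1, Insig1 and Scap, and of Npc1, 15.4-fold. By limma, 22 of 29 members passed an adjusted p of 0.05, 9 higher and 13 lower in testis. That is no more than the background, since 87.9% of all 19994 genes tested passed (50.6% higher, 37.3% lower). The groups did not overlap for 23 members, against 89.4% of all genes. The median member difference was -0.39 on the log2 scale, against 0.48 over all genes. The all-gene median depends on the filter, which a gene counted in only 1 tissue can pass. With a mean of at least 50 it was 0.19 over 14817 genes, with the member median still at -0.39. With scaling by total reads, chosen after seeing the data, the member median was 0.09. That scaling called 12 members higher and 9 lower, because it moved the median of all genes to 0.95. TMM scaling within the fit moved the all-gene median the other way, to 0.28, and called 9 members higher and 17 lower, as did edgeR, while DESeq2 called 9 higher and 16 lower. In bulk tissue, fewer cells of a type and less RNA per cell cannot be told apart.

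**Figure D1:**
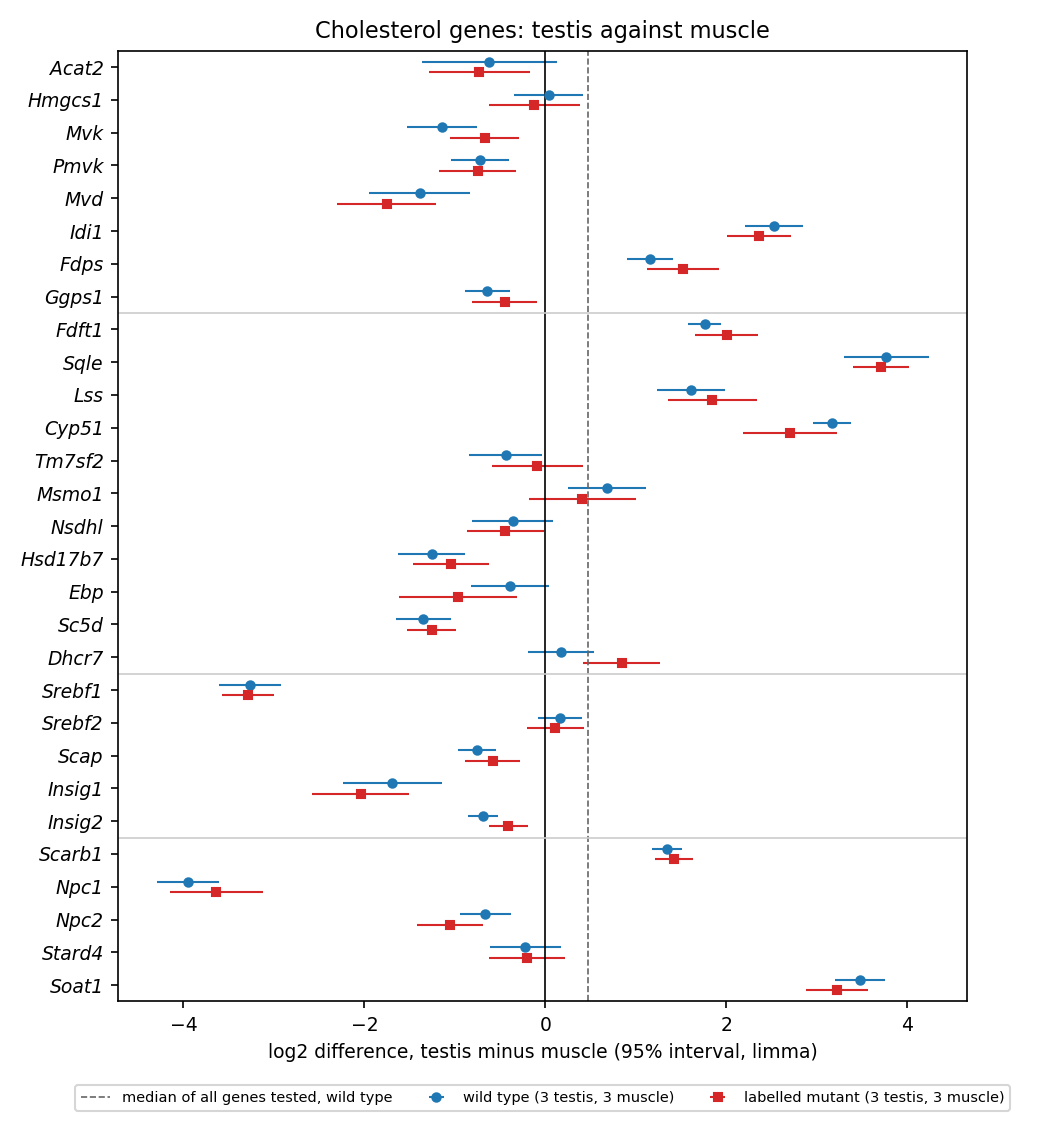
Difference of each cholesterol gene between testis and muscle, as log2 of the normalised count plus 1 (horizontal axis; points, limma estimates; bars, 95% intervals), for the wild-type libraries (blue circles, 3 per tissue) and those labelled mutant (red squares, 3 per tissue). Grey lines separate the 4 role groups and the dashed line is the median of all genes tested in wild type; Idi1, Fdps, Fdft1, Sqle, Lss and Cyp51 lie to the right of it while Mvk, Pmvk, Mvd, Hsd17b7 and Sc5d lie to the left of 0.

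In the mevalonate group, 2 of 8 members were higher in testis, 4 lower and 2 did not pass. Idi1 (ENSMUSG00000058258, chromosome 13, 8885501 to 8892451, plus strand), which isomerises isopentenyl diphosphate, stood at 95.6, 70.3 and 80.9 in wild-type muscle and at 473, 472 and 479 in testis. The 3 testis values lay within 8 counts of one another and far above every muscle value, a log2 difference of 2.53 (SE 0.14, adjusted p = 4.45e-07). Farnesyl diphosphate synthase (Fdps) was higher in testis too, at 564 ± 35.9 against 253 ± 29.5 (SD, n = 3 in each group). Mvd, which decarboxylates mevalonate diphosphate, stood at 95.6, 105 and 131 in muscle and at 37.9, 52.5 and 35.1 in testis. Every muscle value was above every testis value, and the log2 difference was -1.39 (SE 0.24, adjusted p = 6.26e-04). The 2 kinases before it were also lower in testis: Mvk went from 182 ± 22.3 in muscle to 82.00 ± 9.78 in testis, and Pmvk from 215 ± 14.8 to 130.2 ± 14.2. Ggps1, which makes geranylgeranyl diphosphate for protein prenylation, was lower by 1.56-fold. With total-read scaling Pmvk and Ggps1 no longer passed (log2 differences of -0.24 and -0.16). Hmgcs1, which makes HMG-CoA, had 918 ± 236 in muscle and 923 ± 51.5 in testis (difference 0.037, 95% interval -0.34 to 0.42), and its sign changed with the scaling. Acat2, the cytosolic thiolase whose reads may be shared with its neighbour Acat3, had 176 ± 71.3 and 108 ± 16.9 and did not pass (adjusted p = 0.101); it passed as lower with TMM, edgeR and DESeq2 and without muscle C (adjusted p = 0.00147).

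From squalene to cholesterol, 5 of 11 members were higher in testis, 3 lower and 3 did not pass. The 4 enzymes from squalene synthase to lanosterol demethylase were all higher. Sqle (ENSMUSG00000022351, chromosome 15, 59315077 to 59331192, plus strand), which adds the epoxide oxygen to squalene, stood at 141, 95.2 and 75.7 in muscle and at 1311, 1429 and 1421 in testis. The lowest testis value exceeded the highest muscle value several-fold, and the log2 difference was 3.77 (SE 0.20, adjusted p = 4.17e-07). Cyp51 (ENSMUSG00000001467, chromosome 5, 4081145 to 4104746, minus strand), which demethylates lanosterol, stood at 149, 156 and 141 in muscle and 1455, 1257 and 1337 in testis, a difference of 3.17 (SE 0.091, adjusted p = 1.26e-08). Its muscle values were tightly grouped. Squalene synthase (Fdft1), the first step committed to sterols, had 1349.8 ± 95.05 in muscle and 4581 ± 181 in testis, and lanosterol synthase (Lss) 116 ± 22.04 and 355 ± 33.9. With the 2 upstream members Idi1 and Fdps, this made a run of 6 consecutive steps higher in testis, singled out after the values were seen. Across all alternatives, log2 differences in this run stayed between 0.88 (Fdps, lowest) and 4.25 (Sqle, highest).

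The later steps did not follow. Msmo1, the C4 methyl oxidase, had 86.5 ± 15.8 in muscle and 138 ± 11.3 in testis (0.68, adjusted p = 0.00775). Its difference was 0.54 without testis A and B, the libraries with more islet transcripts, which leaves C as the only wild-type testis library. Hsd17b7, the 3-ketosteroid reductase of the same demethylation complex, was lower in testis, from 155 ± 11.1 to 64.4 ± 4.62, and so was Sc5d, the C5 desaturase, from 476 ± 57.9 to 186 ± 21.2. Tm7sf2, the C14 reductase, was called lower (-0.44, adjusted p = 0.043), but not with the mouse as a block (adjusted p = 0.0717). The call was also lost without muscle A or C or any 1 testis library. Without testis A and B the difference of Tm7sf2 was -0.51, and total-read scaling gave 0.04. Tm7sf2 also shares exons with Vps51. Nsdhl, Ebp and Dhcr7, which act in C4 demethylation, shift the ring double bond and reduce the last one, did not pass. Their differences were -0.36, -0.39 and 0.17, with 95% intervals of -0.81 to 0.087, -0.82 to 0.044 and -0.19 to 0.54. Nsdhl and Ebp passed as lower by TMM scaling, edgeR and DESeq2 and changed sign with total reads, where Dhcr7 passed as higher.

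The part of testis-typical transcripts in these muscle counts was not tested. For scale only, were a muscle library to hold the highest measured share of testis transcripts, 1.27%, that share of the testis mean would equal 16.8% of the muscle mean of Sqle, 13.1% of that of Soat1, 9.45% of that of Cyp51 and 6.90% of that of Idi1. For the other members it would be at most 4.66% (Fdft1). That share is a median over genes chosen for a low muscle level, and no table measures it for these genes. Cyp51 overlaps Akap9 and Fdft1 overlaps Ctsb on the opposite strand, with shared exon sequence. Whether reads were counted by strand is not given in the sources used here. Ctsb had means of 6214 in muscle and 773 in testis. Lss likewise shares exon sequence with 4930483K19Rik on the opposite strand, at means of 18.0 in muscle and 119 in testis. So do Ggps1 with Arid4b (637 and 1018) and Scap with 5830462I19Rik (99.2 and 76.4).

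Of the 5 sterol-sensing genes, 4 were lower in testis and 1 did not pass. Srebf1 (ENSMUSG00000020538, chromosome 11, 60199089 to 60222581, minus strand), which encodes SREBP-1, mainly a driver of fatty acid synthesis, stood at 2386, 1723 and 1722 in muscle and 222, 202 and 177 in testis. Muscle A was the highest, and no testis library came near the muscle values (log2 difference -3.26, SE 0.15, adjusted p = 1.53e-07). Insig1 (ENSMUSG00000045294, chromosome 5, 28071363 to 28078662, plus strand), itself a target of the SREBPs and the retention factor for SCAP, stood at 894, 518 and 447 in muscle and 193, 188 and 168 in testis. Its muscle values varied by a factor of 2 and still exceeded all testis values (-1.69, SE 0.24, adjusted p = 1.68e-04). Its relative Insig2 went from 1159 ± 52.3 to 719 ± 23.5 and Scap from 493 ± 21.5 to 292 ± 15.9. Srebf2, which encodes the SREBP that mainly drives cholesterol synthesis, had 415 ± 38.8 in muscle and 463 ± 36.6 in testis, a difference of 0.16 (95% interval -0.082 to 0.40) that did not pass, was -0.04 with TMM and edgeR, and passed with total reads (0.64). None of the 5 passed as higher in testis by limma on the deposited scale. Srebf1 shares exon sequence with Rai1 on the opposite strand, at means of 496 in muscle and 108 in testis.

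Uptake and storage genes differed in opposite directions, 2 of 5 higher in testis, 2 lower and 1 not passing. Soat1 (ENSMUSG00000026600, chromosome 1, 156424525 to 156474331, minus strand), which esterifies cholesterol for storage, stood at 62.6, 53.02 and 55.2 in muscle and 608, 658 and 666 in testis, a log2 difference of 3.48 (SE 0.12, adjusted p = 3.48e-08). Scarb1, which encodes the HDL receptor SR-BI, was also higher in testis, at 1351 ± 24.8 against 531 ± 22.2. Npc1 (ENSMUSG00000024413, chromosome 18, 12189692 to 12236400, minus strand), the lysosomal membrane protein that exports cholesterol, went the other way, with 1441, 1714 and 1476 in muscle and 114, 79.1 and 107 in testis (-3.95, SE 0.15, adjusted p = 5.50e-08). It had the largest difference of the 29 genes on the deposited scale, with muscle over testis in all libraries. Npc2, its soluble partner, was lower in testis by 1.59-fold only, and no longer passed with total reads (-0.18). Stard4, which carries cholesterol between membranes, had 109.5 ± 8.8 and 94.1 ± 9.67 and did not pass (-0.22, 95% interval -0.61 to 0.17); TMM and edgeR called it lower, and total reads gave 0.26. Npc1 overlaps Rmc1 and Gm15956 on the opposite strand, with means of 359 and 124 in muscle and 121 and 7.52 in testis.

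**Figure D2:**
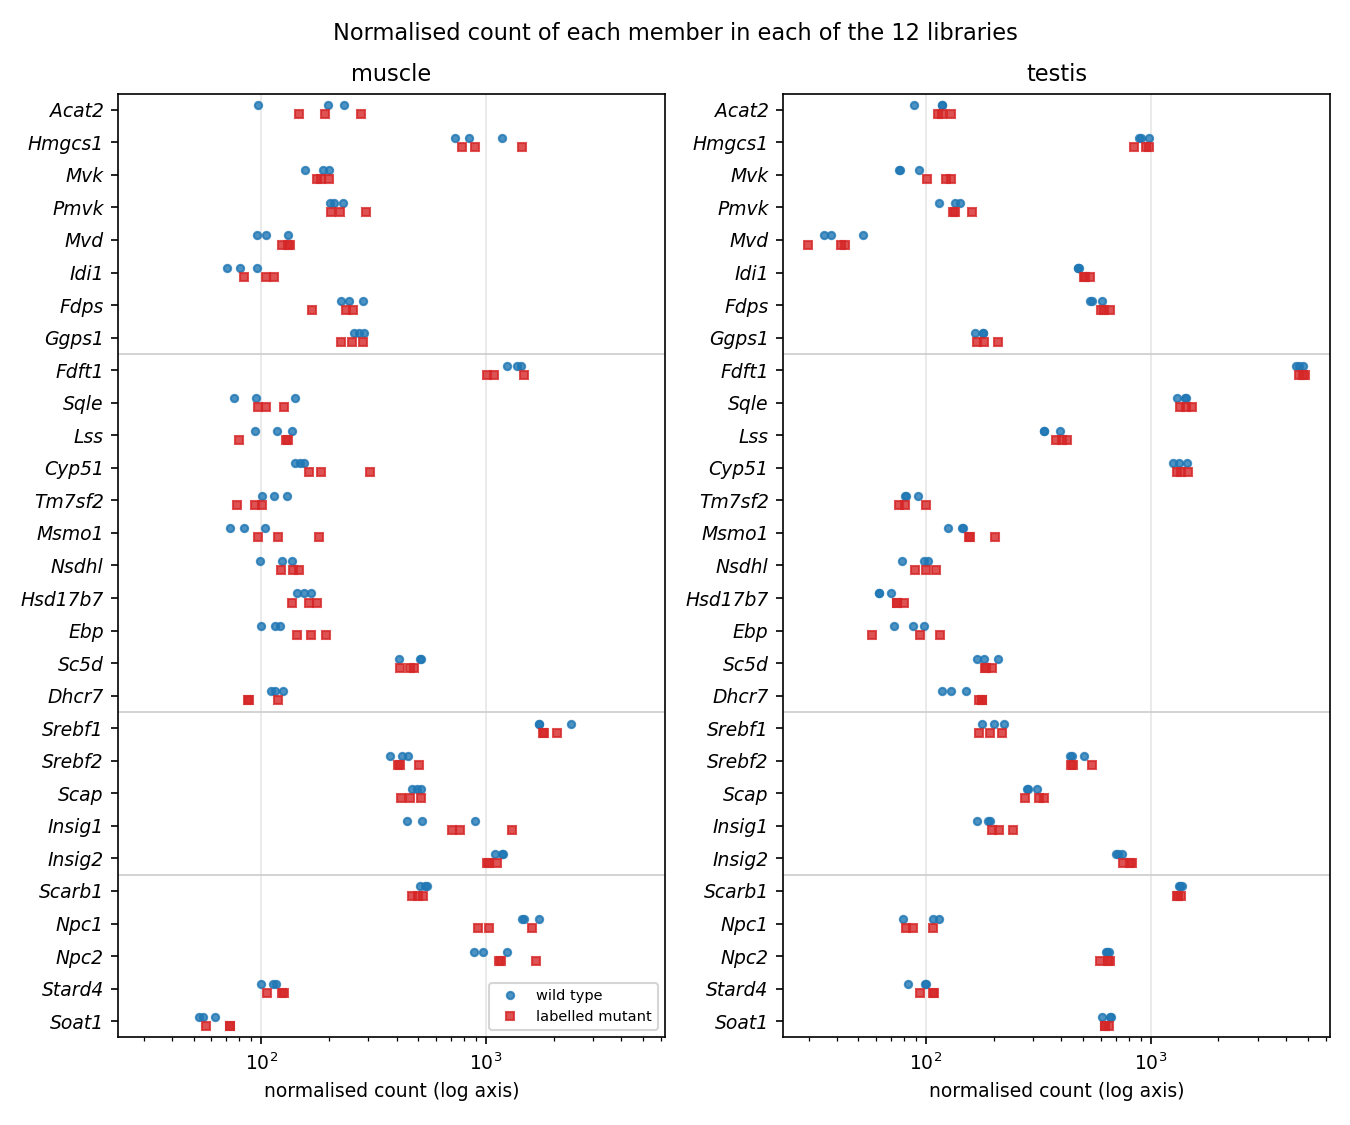
Normalised count (horizontal log axis) of each cholesterol gene in each of the 12 libraries, muscle left and testis right, with wild type as blue circles and labelled mutant as red squares. Within a tissue the 2 genotypes lie together for most genes, while Npc1 and Srebf1 sit far to the right in muscle and far to the left in testis, and Sqle and Soat1 the reverse.

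Levels between genes were compared only per kilobase of exon. In wild-type testis the order was led by Fdft1 at 1084 ± 42.8 normalised counts per kb, then Cyp51 at 306 ± 22.6, Sqle at 250.1 ± 11.8, Insig2 at 207 ± 6.78 and Hmgcs1 at 201 ± 11.2. Fdft1 stood clear of the rest, while Insig2 and Hmgcs1 lay within their SDs of each other. Soat1 was the 11th of 29 in testis and the last in muscle (65.8 ± 3.22 and 5.82 ± 0.513). In wild-type muscle the order was led by Srebf1 at 345 ± 68.02, Insig2 at 334 ± 15.1 and Fdft1 at 319 ± 22.5, which overlapped within their SDs, followed by Insig1 at 200.3 ± 77.6 and Hmgcs1 at 199.8 ± 51.5. By this measure Npc1 was the 7th in muscle (136 ± 13.1) and the last in testis (8.83 ± 1.62). Lss and Msmo1 were among the lowest 3 in muscle with Soat1, at 10.8 ± 2.04 and 14.1 ± 2.57. Using the longest transcript in place of all exons moved 93 of the 116 levels (29 genes in 4 groups) by more than their SD. It raised Scarb1 in testis from 159 ± 2.92 to 437, the second highest. Npc1 became the 5th in muscle (268) and the 28th in testis (17.4), with Hsd17b7 last, and Msmo1 the 24th in muscle (29.1). Fdft1 and Srebf1 stayed first in testis and muscle.

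The libraries labelled mutant, from other animals, gave their own tissue comparison. Of 29 members 24 passed, 9 higher and 15 lower in testis (background 85.9%, 49.7% higher and 36.3% lower). The member median was -0.41, against 0.48 over all genes. Without testis D, E or F the all-gene median was -0.19 in each fit, with members at -0.37, -0.38 and -0.36. These fits tested 16327, 16345 and 16323 genes, against 20021. A gene counted only in testis cannot pass the filter of 3 libraries there. With total reads 11 members were called higher and 7 lower. The run from Idi1 to Cyp51 was again higher in testis. Sqle differed by 3.71, Soat1 by 3.23, Cyp51 by 2.70 and Idi1 by 2.36. Npc1 differed by -3.64, Srebf1 by -3.29, Insig1 by -2.04 and Mvd by -1.75. The calls differed from wild type for 6 genes. Acat2, Nsdhl and Ebp passed here as lower (adjusted p = 0.0212, 0.0498 and 0.0119) and Dhcr7 as higher (0.85, adjusted p = 0.00271), while Msmo1 and Tm7sf2 did not pass (adjusted p = 0.162 and 0.72). With the mouse as a replicate block, added because D and F gave both tissues, 23 passed and Nsdhl did not (adjusted p = 0.0557). With total reads Acat2, Nsdhl, Ebp, Ggps1, Mvk, Pmvk, Scap and Insig2 lost the call, and Acat2, Nsdhl and Ggps1 also lost it without some single libraries. Msmo1 gained it without mutant muscle G (adjusted p = 0.0186). With total reads Msmo1 (0.73, adjusted p = 0.0336) and Srebf2 (0.43, adjusted p = 0.00964) also passed as higher. Whether these calls differ between genotypes is tested by the interaction given further on.

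Other genes of the pathway, from lists of 66 genes, also differed between wild-type tissues: 16 of 61 tested were higher in testis and 35 lower, 51 in all, against the same 87.9% background. Of the 12 other synthesis genes tested, 4 were higher in testis and 7 lower. Of 11 genes of SREBP processing and sterol-regulated degradation, 5 were higher and 5 lower, led by the ubiquitin ligase Rnf139 at 6.63-fold and Erlin1 at 4.63-fold higher. Of 7 genes of lipoprotein uptake and lysosomal hydrolysis, 1 was higher and 6 lower. Among them the receptor Lrp8 was 56.02-fold higher and the receptor Vldlr 95.9-fold lower in testis. Lrp8 had a muscle mean of 21.3, against 1202 in testis, and the part of testis-typical transcripts in that muscle mean was not tested. Of 7 LXR and efflux genes 0 were higher and 5 lower, among them Mylip (22.2-fold), which degrades lipoprotein receptors, and Apoe (5.78-fold), the lipoprotein ligand. Of 13 transfer, storage and oxysterol genes 5 were higher and 7 lower, with the sterol carrier Gramd1c 49.01-fold higher and the sterol 27-hydroxylase Cyp27a1 22.6-fold lower. Of 11 fatty acid synthesis targets of SREBP-1, 1 was higher and 5 lower, led by Acacb (37.03-fold lower) and Scd1 (36.02-fold lower, with muscle values of 17722 ± 12952).

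Mutant and wild-type muscle were compared to ask whether lower Bckdk goes with a change in these genes. By limma, 0 of 29 members passed, against 0.0369% of all 16246 genes (6), and edgeR and DESeq2 on the recovered reads also called 0. At an unadjusted p below 0.05 there were 2 members (9.52% of all genes). The log2 difference was above 0 for 17 members and below 0 for 12, while 44.5% of all genes were above 0, with a median of 0.09 for the members and -0.04 for all genes. This split rested on single libraries: without mutant D it was 14 above and 15 below with a median of -0.0020, and without mutant F 19 and 10 with 0.18. Groups did not overlap for Ebp and Cyp51, higher in the mutant, and Tm7sf2, lower, against 5.11% of all genes higher and 8.85% lower.

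The 3 smallest p-values among the members in muscle belonged to Ebp, Msmo1 and Npc1. Ebp (ENSMUSG00000031168, chromosome X, 8185329 to 8193512, minus strand), the sterol isomerase, stood at 115, 99.5 and 121 in the controls and at 144, 167 and 195 in the mutants. All 3 mutant values lay above all wild-type values, a log2 difference of 0.58 (SE 0.19, 95% interval 0.17 to 1.00, adjusted p = 0.519). That difference was 0.36 without F and G, a fit with D as the only mutant library. Msmo1 (ENSMUSG00000031604, chromosome 8, 64718139 to 64733792, minus strand) stood at 104, 72.5 and 83.4 against 119, 96.8 and 181, with mutant G far above the other libraries and mutant F below wild-type A (0.57, SE 0.26, adjusted p = 0.519). Its difference was 0.32 without G. Npc1 stood at 1441, 1714 and 1476 against 1595, 1029.9 and 923. Mutants F and G were below every wild type and mutant D above 2 of them (-0.42, SE 0.19, adjusted p = 0.519). Without mutant D, Npc1 passed as lower (-0.66, adjusted p = 0.0438), the only 1 of 29 members called in a fit that called 497 of 15964 genes. Without F and G, the libraries with more islet and fewer testis transcripts, the Npc1 difference was 0.05. Summed myofibre markers were also lowest in F and G, at 1939694 and 1340691. The part of any of these in the Npc1 values was not tested.

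By role, the muscle differences were small and mixed, while 44.5% of all genes were above 0. In the mevalonate group 6 of 8 were above 0 (-0.21 to 0.29, median 0.16), and from squalene to cholesterol 6 of 11 (-0.34 to 0.58, median 0.03). Of the sensing genes 2 of 5 were above 0, led by Insig1 at 0.59 (95% interval -0.018 to 1.20, adjusted p = 0.524), which was 0.32 without mutant G and 0.89 without wild-type A. Srebf1 and Srebf2 differed by -0.021 and 0.093, with intervals of -0.36 to 0.32 and -0.24 to 0.42. Of the uptake and storage genes 3 of 5 were above 0, led by Npc2 at 0.36 (adjusted p = 0.537). The 95% interval of Sqle was -0.44 to 0.66 and that of Scarb1, measured at higher counts, -0.38 to 0.19.

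Between single muscle libraries the spread of some members was larger than the difference between the genotype means. After seeing the values, 5 members were found to peak in mutant G and to have their minimum in wild-type C: Acat2, Cyp51, Hmgcs1, Insig1 and Npc2, against 5.36% of all genes. Insig1 stood at 894, 518 and 447 in the controls and at 768, 708 and 1308 in the mutants. Hmgcs1 stood at 1184, 838 and 732 against 896, 784 and 1449.5. In both genes wild-type A was second to mutant G, and the other libraries lay below. Acat2 stood at 233, 199 and 96.3 against 192, 148 and 279. Npc2 stood at 1235, 969.5 and 883 against 1171, 1147 and 1671. Cyp51 stood apart from these: its wild types were level at 149, 156 and 141 and its mutants at 163, 185 and 306. Adipocyte markers differed between the same libraries: 7 of them, all detected, summed to 36321, 27414 and 8364 in the controls and 25992, 27665 and 86174 in the mutants, so that G was highest and C lowest. The part of fat tissue in these values was not tested. Over all 29 members G was highest for 9 (23.6% of all genes) and lowest for 7 (28.7%). Library C was lowest for 10 (13.2% of all genes) and highest for 1 (25.0%).

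A second pattern in muscle, also picked out after the values were seen, set mutants F and G below every control while D was not. It held for 7 members, Fdft1, Dhcr7, Ggps1, Insig2, Scap, Scarb1 and Npc1, against 17.2% of all genes. Fdft1 stood at 1243, 1425 and 1381 against 1473, 1088 and 1008, so that mutant D was the highest and F and G the lowest of the 6 libraries. Scap stood at 495, 514 and 471 against 513, 457 and 419.6, and Scarb1 at 507, 538 and 549 against 525, 498 and 469. Both genes lay in a narrow range, and neither passed (adjusted p = 0.813 and 0.798). Tm7sf2, whose groups did not overlap, stood at 131, 101 and 114 against 100.4, 93.7 and 77.7, a difference of -0.34 in which wild-type B and mutant D nearly touched. F and G are the muscle libraries with more islet and fewer testis transcripts, whose part in these values was not tested.

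**Figure D3:**
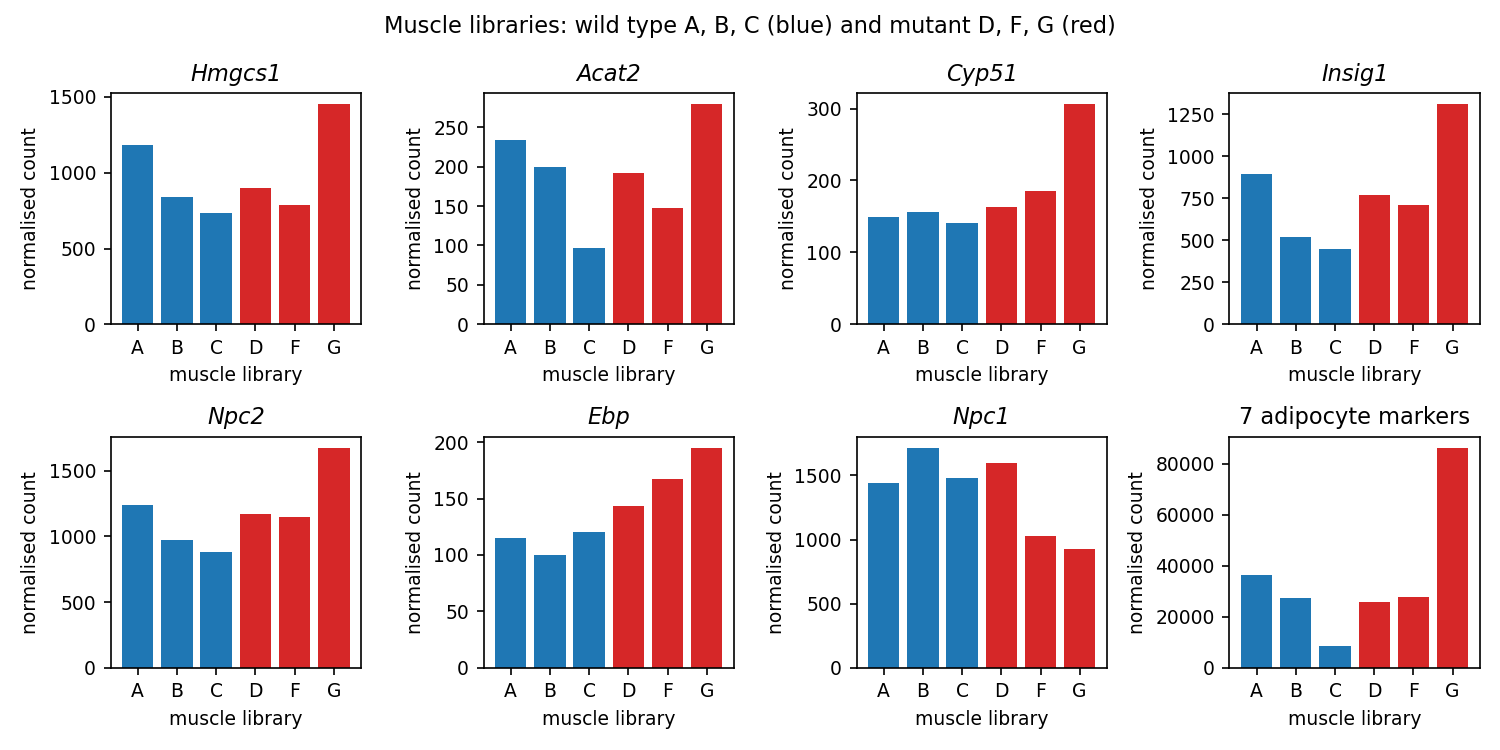
Normalised count (vertical axes, from 0) of 7 cholesterol genes and of the summed 7 adipocyte markers in each muscle library, wild type A, B and C in blue and mutant D, F and G in red. Hmgcs1, Acat2, Insig1, Npc2 and the adipocyte sum (8364 in C, 86174 in G) are each lowest in C and highest in G, while Npc1 is lowest in F and G.

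The testis comparison set wild type against the libraries labelled mutant, whose Bckdk goes against that label. By limma 0 of 29 members passed, against 0.0205% of all 19543 genes (4), and edgeR and DESeq2 also called 0. At an unadjusted p below 0.05 there were 3 members (7.09% of all genes). Differences were above 0 for 23 members and below 0 for 6, with 59.6% of all genes above 0; with scaling by median of ratios or TMM within the tissue the split was 18 and 11. The median was 0.08 for the members and 0.03 for all genes. Groups did not overlap for 7 members, each higher in the libraries labelled mutant (Mvk, Idi1, Msmo1, Hsd17b7, Dhcr7, Insig1 and Insig2), against 9.72% of all genes, and for 0 lower members, against 3.67%.

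Mvk, Dhcr7 and Msmo1 had the 3 smallest p-values of the members in testis. Mvk (ENSMUSG00000041939, chromosome 5, 114444269 to 114460591, plus strand), the kinase that commits mevalonate to isoprenoids, stood at 75.9, 93.3 and 76.8 in controls and at 123, 129 and 101 in the libraries labelled mutant. The groups did not overlap, with a log2 difference of 0.52 (SE 0.16, 95% interval 0.17 to 0.86, adjusted p = 0.696). Dhcr7 (ENSMUSG00000058454, chromosome 7, 143823145 to 143848410, plus strand), which makes cholesterol from 7-dehydrocholesterol, stood at 118, 129 and 151 against 177, 177 and 171. Its 3 labelled-mutant values were nearly equal and all above wild type (0.41, SE 0.13, adjusted p = 0.696). The difference was 0.21 without testis A and B, a fit with C as the only wild-type library. Msmo1 stood at 146, 144 and 125 against 202, 157 and 155, with D highest (0.30, SE 0.14, adjusted p = 0.703; 0.18 without D). None of the 3 passed the adjusted threshold. Among the other members without overlap, Idi1 stood at 473, 472 and 479 against 511, 539 and 504, Hsd17b7 at 69.7, 61.6 and 61.8 against 79.7, 74.6 and 74.6, and Insig1 at 193, 188 and 168 against 197, 243 and 211. The differences of these 3 were small, at 0.12, 0.24 and 0.24, and none passed (adjusted p = 0.755, 0.775 and 0.713).

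Several abundant members had narrow intervals in testis. Fdft1 had 4581 ± 181 for controls against 4719 ± 147 for labelled mutants, a difference of 0.043 (95% interval -0.069 to 0.16). Sqle, Cyp51 and Hmgcs1 differed by 0.05, 0.028 and 0.0059, with intervals of -0.10 to 0.20, -0.13 to 0.19 and -0.16 to 0.17. Scarb1 and Soat1, the receptor and the esterifying enzyme, differed by -0.022 and -0.017, with intervals of -0.15 to 0.10 and -0.17 to 0.14. For these genes the intervals lay within 0.2 of 0 in either direction. By role, 7 of 8 in the mevalonate group, 11 of 11 from squalene to cholesterol, 4 of 5 sensing genes and 1 of 5 uptake and storage genes were above 0, as were 59.6% of all genes. The medians were 0.13, 0.05, 0.08 and -0.02 against 0.03 for all genes. Of the 11, Tm7sf2, Ebp, Sc5d and Cyp51 lay below that all-gene median, at 0.0078, 0.0081, 0.017 and 0.028. Counts by role were not made with median-of-ratios or TMM scaling, where the split of all members was 18 and 11. Leydig cells take up and use cholesterol: their 8 markers, all detected, summed to 7554.9, 7651.3 and 7593.0 in controls and to 9848.8, 8909.7 and 7626.8 in the libraries labelled mutant. Markers of round spermatids summed to 17837 to 18009 and 17781 to 19221. Myofibre markers had log2 differences above 0 for 7 of 7 (1.38 to 3.70), although wild-type C had the highest sum. They summed to 5959, 157 and 14569 in controls and to 14418, 12909 and 13332 in the libraries labelled mutant. Endothelial markers were below 0 for 7 of 7 (-0.69 to -0.013) and islet markers below 0 for 10 of 12. The part of any of these in the member values was not tested.

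**Figure D4:**
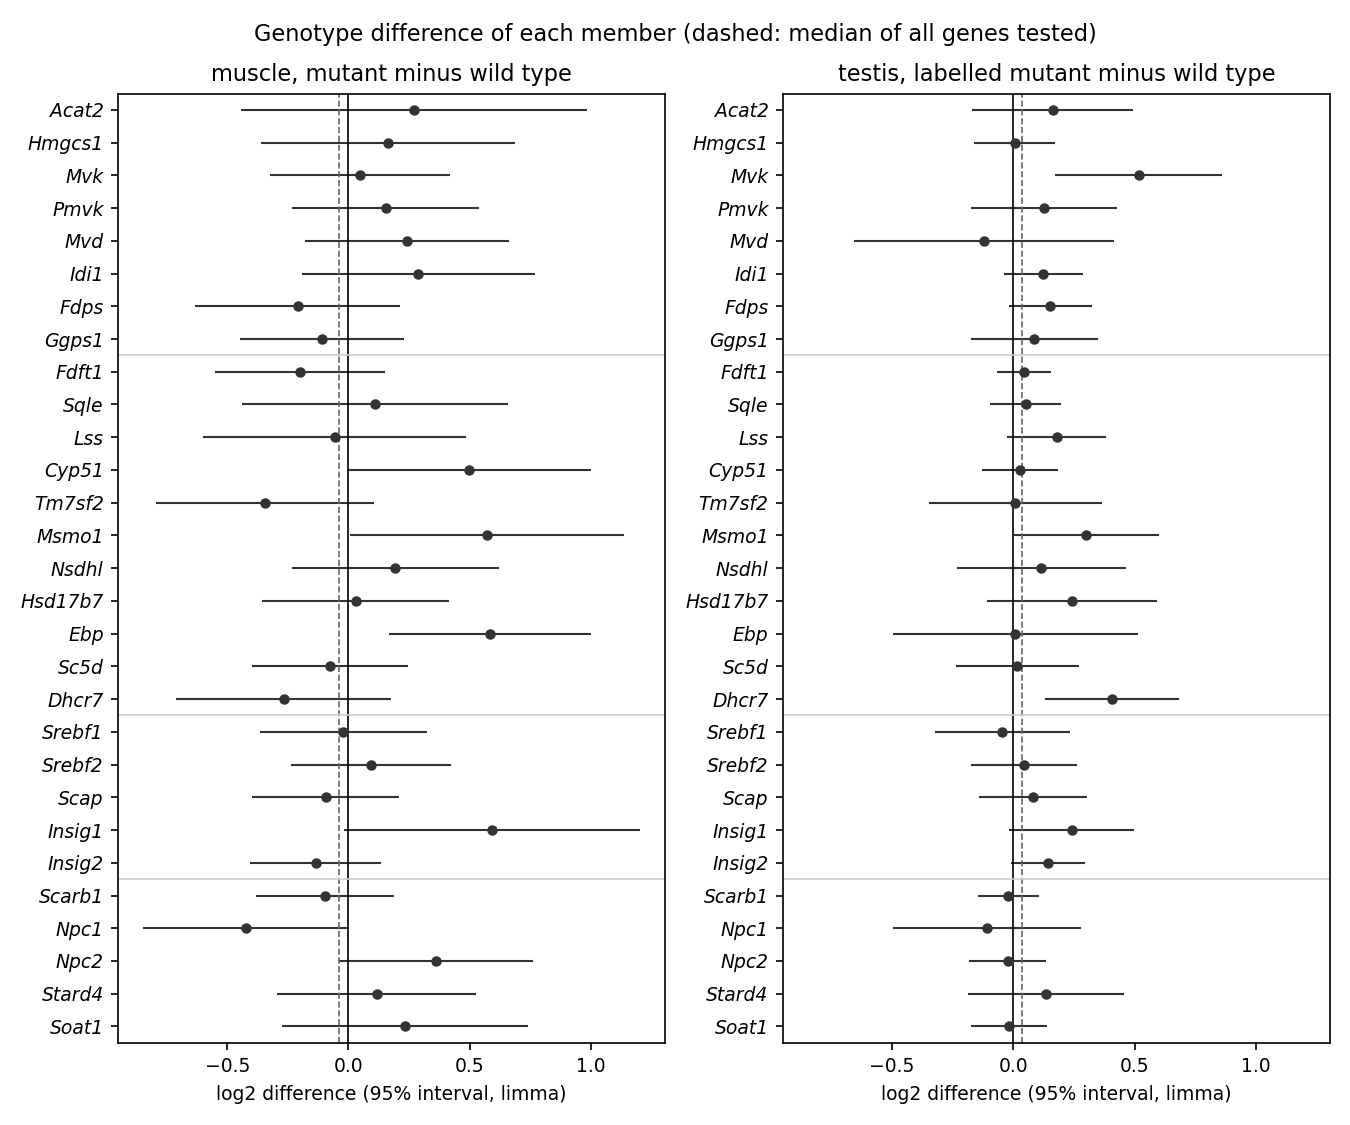
Log2 difference of each cholesterol gene between libraries labelled mutant and wild type (horizontal axis; points, limma estimates; bars, 95% intervals; 3 against 3 libraries), muscle left and testis right. Solid lines mark 0 and dashed lines the median of all genes tested; intervals are mostly narrower in testis, and Ebp and Msmo1 in muscle and Mvk and Dhcr7 in testis lie farthest above 0 relative to their intervals.

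The interaction tested whether the genotype difference itself was unlike in the 2 tissues. By limma 0 of 29 members passed, against 0.0136% of all 14677 genes (2), and edgeR, DESeq2 and the fit with the mouse as a replicate block also called 0. At an unadjusted p below 0.05 there were 2 members (8.69% of all genes), Dhcr7 and Insig2. Dhcr7 stood at 110.4, 126 and 116 in wild-type muscle and 119, 88.6 and 87.03 in mutant muscle, where D was in the wild-type range and F and G below it. With the higher testis values of the libraries labelled mutant, its interaction was 0.67 (SE 0.23, 95% interval 0.18 to 1.17, adjusted p = 0.574). It passed without muscle D (0.82, adjusted p = 0.0399), the only 1 of 29 members called in a fit that called 951 of 14482 genes. The Dhcr7 interaction was 0.19 without the 4 libraries with more islet transcripts. That fit has D alone for mutant muscle and C alone for wild-type testis. Dhcr7 is on the chromosome of Bckdk, 15.9 Mb away, and the part of linked sequence was not tested. Insig2 (ENSMUSG00000003721, chromosome 1, 121304353 to 121332589, minus strand) stood at 1195, 1099 and 1184 against 1126, 1012 and 1029.9 in muscle and at 697, 744 and 715 against 754, 823 and 805 in testis. Mutant muscle overlapped the wild type from below and labelled-mutant testis lay above its wild type (0.28, SE 0.12, adjusted p = 0.574). Mvk, at 157, 200.2 and 189 against 201, 177 and 184 in muscle, had 0.47 (SE 0.23, adjusted p = 0.582).

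Among the other genes of the pathway no genotype call was made in either tissue or in the interaction by limma (0 of 62, 0 of 60 and 0 of 59 tested). At an unadjusted p below 0.05 there were 6, 6 and 5, against 9.52%, 7.09% and 8.69% of all genes tested. Genes with the smallest p of a list are named. In muscle Acacb, which makes malonyl-CoA, stood, from the lowest library to the highest, at 4344, 4759 and 5479.5 in wild type and 2336, 2928 and 4289 in the mutant (-0.65, adjusted p = 0.519). Its difference passed without mutant D (-0.89, adjusted p = 0.0264), in the fit that called 497 of 15964 genes. The Acacb difference was -0.17 without F and G, which leaves D as the only mutant muscle library. The lipoprotein receptor Vldlr had 5313 ± 402 and 3861 ± 803, the prenyltransferase subunit Pggt1b 181 ± 42.1 and 112 ± 34.3, and Cyp27a1 1671 ± 139 and 1297 ± 29.96. Without F and G the differences of Vldlr and Pggt1b were -0.18 and -0.24. Apoe had 4524 ± 1428 and 6714 ± 3176, and its difference of 0.51 was -0.25 without F and G. In testis the scavenger receptor Lrp1 had 838 ± 59.1 and 687 ± 55.2 (-0.29, adjusted p = 0.696), the citrate lyase Acly 995 ± 19.4 and 889.9 ± 72.6, the efflux pump Abca1 783 ± 36.2 and 687 ± 76.6, the sterol carrier Stard5 79.6 ± 6.01 and 60.97 ± 4.93, the haem-binding Pgrmc1 1167 ± 20.3 and 1305 ± 126, and the farnesyltransferase subunit Fnta 1174 ± 51.6 and 1288 ± 62.8. In the interaction the named genes were Vldlr (0.79), Pggt1b (0.75), Osbpl2 (0.54), Mid1ip1 (0.42), Erlin1 (0.39) and the oxysterol receptor Nr1h3 (-0.35), with adjusted p-values of 0.574 to 0.598. Vldlr and Pggt1b had -0.03 and -0.01 without the libraries with more islet transcripts.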

How the data were processed

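RNA-seq of 12 libraries (3 in each tissue and genotype) was analysed. Per the submitters' processing notes, fastp 0.23.4, HISAT2 2.1.0, Picard 1.119, HTSeq 0.11.2 and DESeq2 1.46.0 were used with GRCm38.p4; whether counting used strand is not given in the sources used here. The authors deposited normalised counts, a signal on the scale of reads divided by a size factor per library, and rlog values on a log2 scale. Multiplying the deposited values back gave whole reads for 100% of values within 0.001, a tolerance widened in proportion to the count for high counts. The libraries held 12852427 to 15795722 reads, and these recovered reads entered edgeR and DESeq2. In testis D, 26 cells hold dates in place of values and were left out; they touch no listed gene.

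Differences were tested on log2(normalised count + 1) with limma 3.58.1 (R 4.3.3, trended variance), on genes at 10 or more in at least 3 libraries of the fit, with Benjamini-Hochberg adjustment over all genes tested and a threshold of 0.05. A fold change is on that scale, which understates changes of low genes. Fits were run within a tissue for genotype, within a genotype for tissue, and over 12 libraries for the interaction. Libraries carry no sample title in the table, only tissue, mouse number and genotype, and were placed by group. Same-numbered wild-type mice gave both tissues, which makes the tissue comparison paired by animal; the deviations of A, B and C from their group means correlated across tissues at -0.0116, 0.00348 and 0.00422.

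Alternatives were pseudocounts of 0.5 and 8, no filter, a mean of at least 50, median-of-ratios and TMM scaling, rlog values, no variance trend, edgeR 4.0.16, DESeq2 1.42.0, 1 model for 12 libraries, the mouse as a replicate block, leaving out each library, and the longest transcript for levels per kb; total-read scaling, the block between labelled-mutant tissues (D and F gave both) and leaving out libraries with more islet transcripts were chosen after seeing the data. The fits were tested on simulated data. Genes named with full values were the 3 members with the smallest p in each genotype comparison and the interaction, the 4 members farthest in each direction between tissues in wild type, and the gene with the smallest p in each other list (some of which are not reported here), beside members singled out after their values were seen, as the text says. The members and lists were chosen with earlier results of these data known. Gene positions and exon lengths are from GENCODE on GRCm38.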

Additional observations from a re-analysis of the deposited data

How the results depend on the processing

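The count of members called stayed at 0 under each alternative in testis. In muscle and in the interaction it stayed at 0 except without mutant muscle D. There Npc1 (muscle, -0.66) and Dhcr7 (interaction, 0.82) made it 1 of 29, so that leaving out 1 library gave 0 to 1 in both. Those 2 fits called 497 of 15964 genes in muscle and 951 of 14482 in the interaction. The muscle member median was -0.0020 to 0.18 with 1 library left out, against 0.09. The testis member median was 0.047 with median-of-ratios and 0.042 with TMM scaling, and 0.045 to 0.11 with 1 library left out. The wild-type tissue median was -0.46 with median-of-ratios, -0.58 with TMM, -0.29 with rlog values, 0.090 with total reads, -0.48 without testis A and B, and -0.47 to -0.34 with 1 library left out. With 1 library left out, the all-gene median of that comparison went from -0.18 (without testis A) to 0.66 (without muscle C). These fits tested 16348 and 19064 genes, against 19994. The filter asks for 3 libraries, so a gene counted only in the tissue that lost a library cannot pass. With the mouse as a replicate block, 21 members were called between wild-type tissues, losing Tm7sf2, 23 between labelled-mutant tissues (a block added after seeing the data), losing Nsdhl, and 0 in the interaction; it changed no other member call in these 3 fits. No paired analysis was possible because different mice make up the genotypes, for the 2 genotype comparisons. Of the single-gene results, 2104 kept direction and side of the threshold, 24 gained and 33 lost the call and 27 changed sign. With the longest transcript 93 of 116 levels per kb moved by more than their SD. Sign changes without the islet-rich libraries were Apoe (-0.25) and Npc1 (0.052) in muscle, and Pggt1b (-0.0098) and Vldlr (-0.029) in the interaction. Between wild-type tissues Hmgcs1 was -0.036 with median-of-ratios, -0.16 with TMM, -0.20 with edgeR, -0.084 with DESeq2 and -0.11 to 0.24 with 1 library left out. Dhcr7 was -0.023 with TMM and -0.018 with edgeR, Srebf2 -0.039 and -0.045, and with total reads Ebp was 0.090, Nsdhl 0.12, Stard4 0.26 and Tm7sf2 0.040. Between labelled-mutant tissues, total reads gave Hmgcs1 0.20, Stard4 0.12 and Tm7sf2 0.23, Srebf2 was -0.061 with TMM, -0.057 with edgeR and -0.084 without the islet-rich libraries, and Hmgcs1 was 0.047 without those and -0.30 to 0.14 with 1 library left out. Leaving out the islet-rich libraries leaves 1 library in a group, whose spread is assumed to be like that of the others. Except where the scaling itself moves all genes or the filter changes which genes are tested, the cause was not tested.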
